A study of Bos taurus with 34 samples.

Results

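The upper uterine horn was compared between the side of ovulation and the opposite side in Bos taurus. All libraries named ip-upUH (ipsilateral upper horn) and con-upUH (contralateral upper horn) were taken, which gave 9 of the 34 libraries of the series, 4 ipsilateral and 5 contralateral. The animals were adult nulliparous Holstein heifers, brought into a common cycle with the CIDR-Synch protocol, which uses a progesterone-releasing vaginal insert, and slaughtered on day 2 after ovulation. Every group shared this synchronisation and this day. The ipsilateral group held heifers 10872, 10882, 11033 and 11070, and the contralateral group held the same 4 animals and heifer 11110, so that 4 heifers gave both sides. No treatment or genotype separated the groups, and the only difference given by the labels is the side. RNA of bulk tissue was sequenced, and in such bulk samples fewer cells of a type and less RNA per cell cannot be told apart.

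The cow has a uterus with long paired horns, each joined at its tip to the oviduct of its own side. On the second day after ovulation an embryo, where there is one, is still in the oviduct, and the upper horn is the part of the uterus nearest to it. The ovary that has ovulated is forming a corpus luteum, and blood vessels and lymphatics of each side carry its hormones to the nearby oviduct and horn tip. By its title the series set out to find embryokines, signals of maternal tissue to the embryo, and the side comparison asks whether the horn facing the ovulation differs from its opposite.

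The 9 libraries held 12438895 to 30412782 counts on the ipsilateral side and 11619486 to 26427580 on the contralateral side. Features with at least 1 count numbered 22183 to 25878 in ipsilateral and 16049 to 26298 in contralateral libraries, the lowest being the contralateral horn of heifer 11033. That library also held 10.5% mitochondrial counts and lay at -196 on the first principal component of the 9 libraries (44.5% of the variance), where the others lay between -25.8 and 67.5. In the contralateral library of heifer 10882 a nuclear 18S ribosomal transcript took 19.6% and LOC112444681, annotated only as a pseudogene, took 29.2% of counts, against 6.48% and 7.24% in the ipsilateral library of that heifer, which were also the highest shares on that side. Markers of the oviduct lining were low on both sides: the 12 tested summed to 10.1 to 19.6 CPM in ipsilateral and 10.1 to 42.0 CPM in contralateral libraries, and OVGP1, the oviduct glycoprotein, averaged 0.116 CPM in ipsilateral and 0.0167 CPM in contralateral libraries. CPM is a transcript's count scaled to the size of its library. General epithelial markers summed to 2866 to 5279 CPM in ipsilateral and 2068 to 7245 CPM in contralateral libraries. The 17 tested stromal markers summed to 46140 to 87615 CPM in ipsilateral and 42862 to 68987 CPM in contralateral libraries.

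A single transcript was called different between the sides in the reported fit. ERRFI1, which codes for a feedback inhibitor of the EGF receptor, was higher in the ipsilateral horn. It was the only call among 17241 transcripts tested, 0.0058% of them, with edgeR's quasi-likelihood test, the heifer as a block and an adjusted p under 0.05 by the Benjamini-Hochberg method. It stood at 133, 450.1, 76.6 and 216 CPM in the ipsilateral libraries of heifers 10872, 10882, 11033 and 11070, against 92.6, 80.8, 29.3 and 44.4 CPM in their contralateral libraries and 44.96 CPM in that of heifer 11110. Each heifer had more on the side of ovulation, and the groups overlapped, since the ipsilateral value of 11033 lay below the contralateral ones of 10872 and 10882. The mean was 219 ± 164 CPM in ipsilateral and 58.4 ± 26.9 CPM in contralateral horns (SD, n = 4 and 5). The log2 fold change was 1.81 ± 0.30 (SE; 95% interval 1.22 to 2.39), with an adjusted p of 0.016. The call rested on single libraries: the adjusted p was 0.105 without the contralateral and 0.578 without the ipsilateral library of 10882, 0.108 without the contralateral library of 11033, and 0.0969 without the contralateral and 0.338 without the ipsilateral library of 11070. It was 0.115 without the heifer block, 0.485 in the 4 full pairs alone and 0.977 without the contralateral libraries of 10882 and 11033 together. The log2 fold change stayed between 1.44 and 2.08 under the alternatives run, that of counts summed by gene (1.83) included.

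No transcript was called lower by this test (the DESeq2 Wald test called 21 higher and 1 lower, and edgeR's with no filter on low counts 121 higher and 52 lower). An unadjusted p under 0.05 was found for 1188 transcripts (6.89%), of which 572 (3.32%) had a positive and 616 (3.57%) a negative difference. That number was 612 without the contralateral library of 11033 and 729 without the ipsilateral library of 11070. The median log2 fold change of all tested transcripts was -0.04, with -1.10 and 1.04 at the low and high ends that cut off 5% each. A transcript measured at 10 to 100 CPM had a median SE of 0.28, so that its 95% interval reached 0.56 to either side on the log2 scale, and one at 1 to 10 CPM reached 0.97. Counts of list members at an unadjusted p under 0.05 below stand beside these shares of 3.32% positive and 3.57% negative. The shares cover every tested feature, scarce and unnamed ones included, while a list takes only the most counted feature of each gene. A share over like features was not computed, so the comparison is a rough one. The lists were also chosen with earlier results of these data known. Except for ERRFI1, the transcripts below are given as estimates that did not pass the adjusted test. Their values stand in the heifer order 10872, 10882, 11033 and 11070, with 11110 last on the contralateral side.

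Immediate early genes are transcribed within minutes of a growth factor, a hormone or another stimulus, without new protein synthesis, and code for transcription factors and for the inhibitors that end the signal. Of 32 such genes on the list, 28 had a feature and 26 were tested. None was called, but 18 (69.2%) had a positive difference with an unadjusted p under 0.05, against 3.32% of all tested transcripts. Without the ipsilateral library of 10882 these were 11. All 26 had a positive difference, against 8103 of all 17241 tested transcripts. Their median log2 fold change was 1.38, against -0.04 over all transcripts. Higher in all 4 heifers were 12 of the 26, against 10.5% of all transcripts, and 2, FOSL2 and MYC, had every ipsilateral library above every contralateral one, against 1.42%. The heifers were unequal: the list's median difference was 0.15 in 10872, 2.61 in 10882, 0.49 in 11033 and 2.28 in 11070. The summed level of the list was 3290 to 16718 CPM in ipsilateral and 2325 to 4440 CPM in contralateral libraries.

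The transcription factors of the list show this. EGR1, a zinc finger factor, stood at 139, 1551, 39.0 and 641 CPM in the ipsilateral libraries of heifers 10872, 10882, 11033 and 11070, against 70.3, 73.8, 8.99, 48.1 and 42.7 CPM in the contralateral libraries of the same heifers and 11110. The ipsilateral libraries of 10882 and 11070 were far above the rest, and the groups overlapped through that of 11033. The log2 fold change was 2.87 ± 0.72 (95% interval 1.46 to 4.28, adjusted p = 0.472). FOSB, a partner of JUN proteins in AP-1, had 13.1, 169, 1.13 and 82.0 CPM in ipsilateral libraries, against 1.83, 0.477, 0.290, 2.03 and 0.418 CPM in contralateral ones. Its log2 fold change of 4.54 ± 0.99 (2.60 to 6.48, adjusted p = 0.316) was the largest of the list, and the ipsilateral library of 11033 again lay among the contralateral values. FOS had 79.5, 1624, 34.4 and 1054 CPM in ipsilateral libraries, against 69.5, 76.2, 23.0, 129 and 37.3 CPM in contralateral ones, with differences of 0.19, 4.41, 0.58 and 3.03 on the log2 scale in the 4 heifers. JUNB differed by -0.84, 3.21, 0.50 and 2.72, and EGR3 by 0.12, 4.20, -0.64 and 2.38. In heifer 10872 the sides were thus close for FOS and EGR3 and JUNB was lower ipsilaterally, while in 10882 and 11070 all 3 were high on the ovulatory side.

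**Figure D1:**
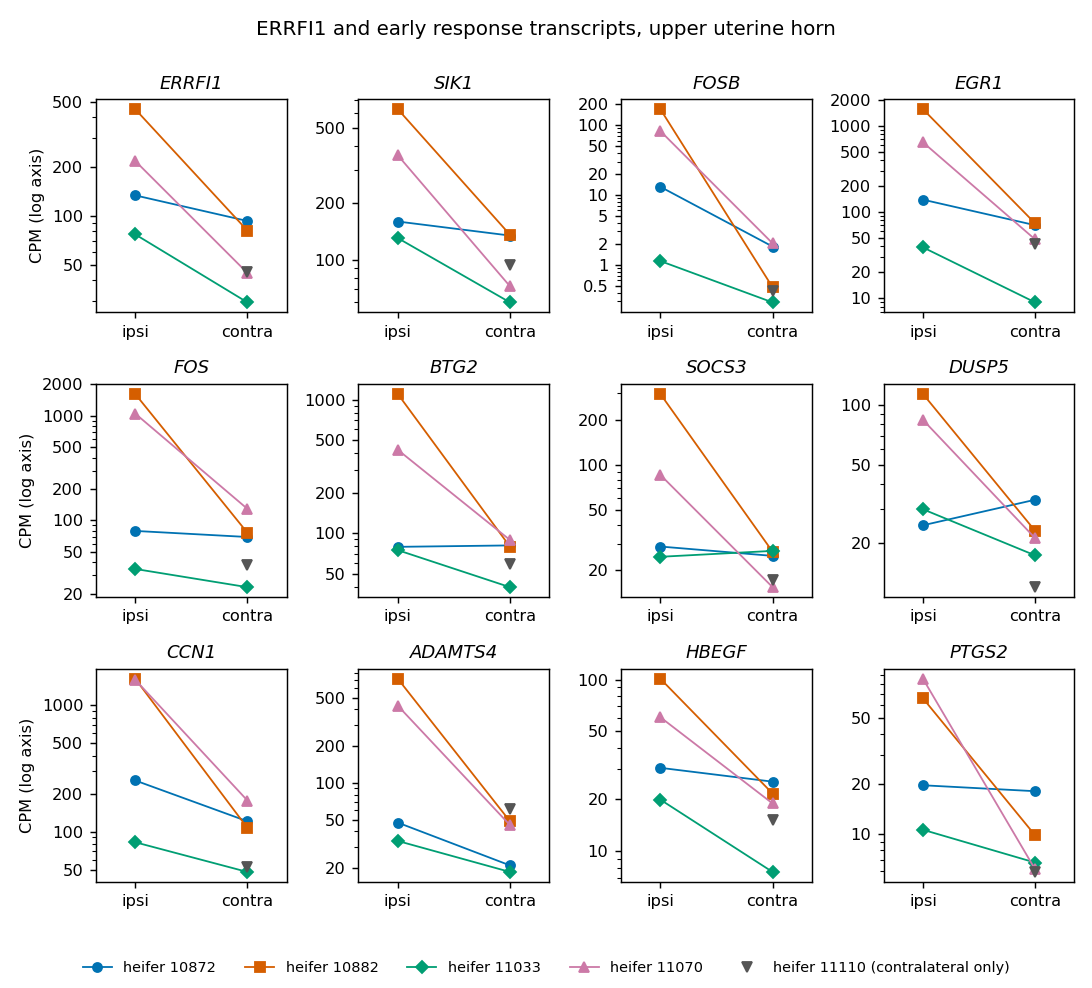
CPM (log axis) of 12 transcripts in each upper horn library, ipsilateral (ipsi) left and contralateral (contra) right, with a line joining the sides of a heifer. The steepest lines are those of heifers 10882 and 11070, for example FOS at 1624 and 1054 CPM ipsilaterally against 76.2 and 129 CPM contralaterally, and those of 10872 are nearly flat for FOS, BTG2 and SOCS3.

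Genes that limit such a response had a like layout, as did SIK1, a kinase induced by cyclic AMP that is not on the list. SIK1 had 159.5, 629, 130.3 and 358 CPM in ipsilateral libraries, against 134, 136, 59.4, 72.3 and 94.0 CPM in contralateral ones. It was higher on the ovulatory side in 4 of 4 heifers and, after ERRFI1, had the smallest p of the comparison, with a log2 fold change of 1.47 ± 0.29 (0.91 to 2.03, adjusted p = 0.119). DUSP5, a phosphatase that inactivates ERK in the nucleus, had 24.7, 114, 29.8 and 84.0 CPM in ipsilateral libraries, against 33.2, 23.1, 17.4, 21.2 and 12.03 CPM in contralateral ones (log2 fold change 1.40 ± 0.32, adjusted p = 0.316). SOCS3, which inhibits cytokine receptor signalling through JAK and STAT, had 28.7, 297, 24.6 and 86.1 CPM in ipsilateral libraries, against 24.9, 26.6, 26.9, 15.4 and 17.1 CPM in contralateral ones (2.01 ± 0.47, adjusted p = 0.316, and 0.86 without the ipsilateral library of 10882). In heifers 10872 and 11033 the sides were close for SOCS3, with differences of 0.21 and -0.13. ZFP36, which promotes decay of AU-rich messenger RNAs, differed by -0.31, 3.41, 0.30 and 2.32 and BTG2, an antiproliferative factor, by -0.04, 3.79, 0.92 and 2.24 in heifers 10872, 10882, 11033 and 11070. The transcripts of the list with the smallest differences were KLF2 (0.30) and SGK1 (0.35), the second measured at means of 0.311 CPM in ipsilateral and 0.257 CPM in contralateral libraries.

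Other regulators of transcription and the cytoskeleton, chosen after their values were seen, had similar estimates. SRF, the serum response factor that drives many early genes and, with myocardin, smooth muscle genes, had 71.0, 166, 92.2 and 104 CPM in ipsilateral libraries, against 57.5, 69.4, 29.6, 52.3 and 53.7 CPM in contralateral ones, without overlap (log2 fold change 0.93 ± 0.24, adjusted p = 0.472). CEBPB, a leucine zipper factor needed for decidualisation in mouse and human endometrium, was higher by 0.25, 1.52, 2.13 and 1.75 in the 4 heifers. CITED2, a coregulator that binds CBP and p300, differed by 0.71, 1.57, -0.16 and 2.503, and RND3, a small GTPase that lowers actomyosin contraction, by 0.61, 1.52, 0.95 and 1.79.

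ERRFI1 belongs to the EGF system, in which ligands are cut from the cell surface, receptors of the ERBB family are activated and ERK phosphatases, Sprouty and ERRFI1 proteins end the signal. Among 39 tested genes of the FGF, EGF and IGF families ERRFI1 was the one called, 9 (23.1%) had a positive difference with an unadjusted p under 0.05 with ERRFI1 among them, and 1, DUSP6, a negative one. Without the ipsilateral library of 10882 the positive ones were 5. The list's median log2 fold change was 0.35. Over the 20 alternatives it ran from 0.25 to 0.53, the highest being without the ipsilateral library of heifer 11033. Of the ligands, HBEGF, a heparin-binding EGF family member known to act on the blastocyst in mice, had 30.5, 101, 19.9 and 60.3 CPM in ipsilateral libraries, against 25.4, 21.6, 7.54, 18.9 and 15.1 CPM in contralateral ones. It was higher in each heifer by 0.27, 2.22, 1.39 and 1.67, with a log2 fold change of 1.30 ± 0.35 (0.62 to 1.99, adjusted p = 0.524), and the groups overlapped. AREG, amphiregulin, was scarce, at 0.644, 6.34, 0.618 and 8.73 CPM in ipsilateral libraries, against 1.498, 0.556, 0.483, 0.258 and 0 CPM in contralateral ones. For the receptors EGFR, ERBB2 and ERBB3 the log2 fold changes were 0.12 ± 0.21, 0.01 ± 0.21 and 0.14 ± 0.23, below a single SE each.

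The inhibitors in this family had estimates of both signs. SPRY1, a Sprouty inhibitor of receptor signalling, averaged 80.9 CPM in ipsilateral and 38.6 CPM in contralateral libraries (log2 fold change 0.94) and was higher in 4 of 4 heifers, while SPRY2 had a log2 fold change of 0.09 ± 0.47. DUSP6, a cytoplasmic ERK phosphatase, had 35.3, 27.8, 63.5 and 34.5 CPM in ipsilateral libraries, against 74.1, 63.2, 133, 47.3 and 31.8 CPM in contralateral ones. It was lower on the ovulatory side in 4 of 4 heifers, opposite to DUSP5, with a log2 fold change of -0.82 ± 0.34 (-1.48 to -0.16, adjusted p = 0.706), and the groups overlapped. Without the contralateral library of 11033 the value was -0.49, and over the 20 alternatives it ran from -1.03 to -0.25.

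Of 27 tested candidate embryokines, secreted signals held to act on the early embryo, 7 (25.9%) had an unadjusted p under 0.05 with a positive difference. This compares with 3.32% of all tested transcripts. HBEGF, given above with the EGF family, is among the 7, so the lists overlap. None had a negative difference at that p, and the median log2 fold change was 0.42. Without the ipsilateral library of 11070 3 had a positive difference at that p. CCN1, a matricellular protein induced as an early gene and thus counted in both lists, had 254, 1627, 82.5 and 1597 CPM in ipsilateral libraries, against 121, 107, 48.0, 176 and 52.1 CPM in contralateral ones (log2 fold change 2.38 ± 0.67, 1.07 to 3.70, adjusted p = 0.528). IL6, a cytokine that signals through STAT3, had 0.439, 12.8, 0.206 and 3.78 CPM in ipsilateral libraries, against 0.468, 0.874, 0, 1.33 and 0.186 CPM in contralateral ones, with the ipsilateral libraries of 10882 and 11070 above all others. CXCL12, a chemokine that draws CXCR4-bearing cells, had 13.8, 40.5, 12.5 and 16.6 CPM in ipsilateral libraries, against 12.6, 15.98, 3.96, 4.28 and 19.5 CPM in contralateral ones. GRP, the gastrin-releasing peptide, a neuropeptide of the uterine lining, had 5016, 2641, 7360.4 and 2653 CPM in ipsilateral libraries, against 11445, 4383, 6749.6, 3281 and 1804 CPM in contralateral ones. For GRP the log2 fold change was -0.29 ± 0.68 (-1.63 to 1.05), an interval that holds differences of more than 1 in either direction. PTGS2, the inducible cyclooxygenase of prostaglandin synthesis, had 19.7, 65.6, 10.7 and 86.0 CPM in ipsilateral libraries, against 18.2, 9.86, 6.77, 6.16 and 5.95 CPM in contralateral ones, with a log2 fold change of 2.03 ± 0.57 (adjusted p = 0.528). It was the 1 of 13 tested prostaglandin genes (7.69%) with an unadjusted p under 0.05.

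**Figure D2:**
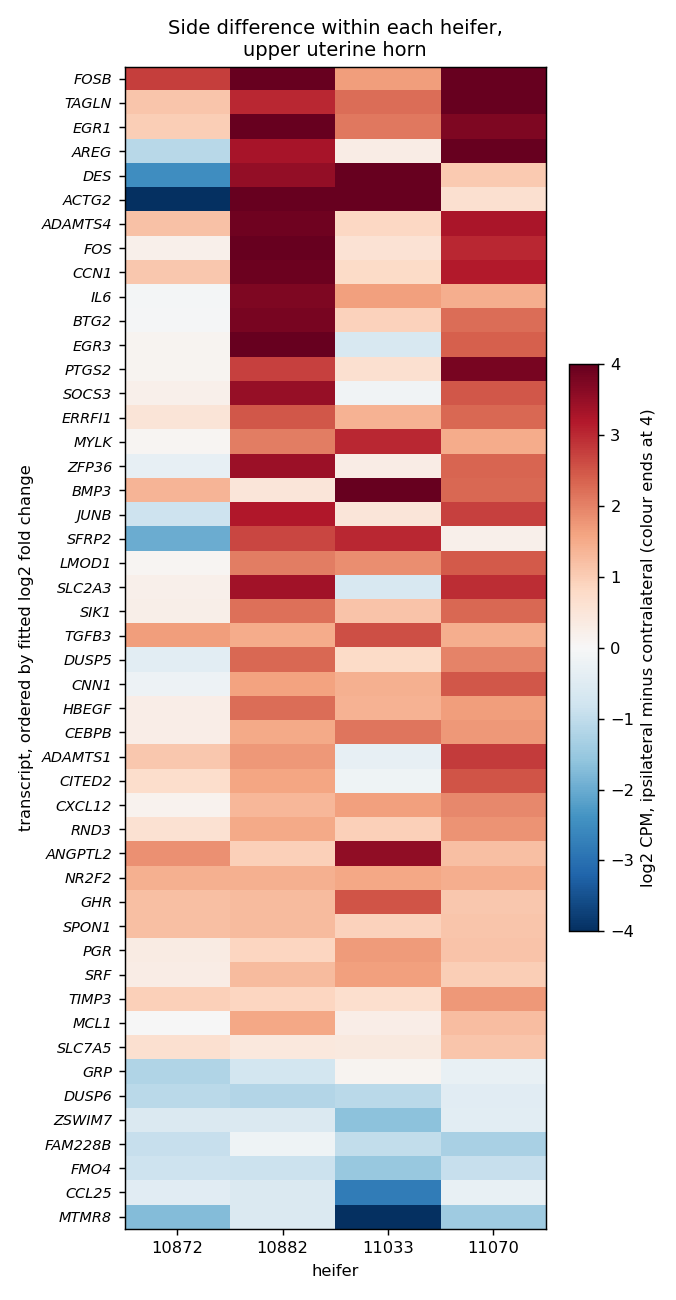
Difference in log2 CPM, ipsilateral minus contralateral, of 48 transcripts (rows, ordered by the fitted log2 fold change) in the 4 heifers with both sides (columns); red is higher and blue lower on the ovulatory side, and the colours end at 4. Early genes are deepest in heifers 10882 and 11070, muscle transcripts such as DES and ACTG2 in 10882 and 11033 with the opposite sign in 10872, and NR2F2, GHR, SPON1 and TIMP3 have like values in most columns.

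Smooth muscle transcripts were the other list with a large median. Of 14 genes, 10 were tested, 9 had a positive difference, 6 (60%) had an unadjusted p under 0.05 and none was called; the median log2 fold change was 1.47. LMOD1, which nucleates actin filaments in smooth muscle, had 120.3, 492, 254 and 132 CPM in ipsilateral libraries, against 114, 119, 69.7, 24.01 and 46.4 CPM in contralateral ones. The lowest ipsilateral value, 120.3 CPM, was just above the highest contralateral one, 119 CPM, and the log2 fold change was 1.60 ± 0.32 (0.96 to 2.24, adjusted p = 0.149). DES, desmin of the muscle intermediate filament, had 124, 1780.3, 2423 and 202 CPM in ipsilateral libraries, against 699, 156, 90.5, 98.1 and 82.0 CPM in contralateral ones (2.56 ± 0.72, adjusted p = 0.528). ACTG2, enteric smooth muscle actin, whose reads may be shared with its close paralogues, had 19.6, 517, 1069 and 7.86 CPM in ipsilateral libraries, against 315, 19.0, 49.2, 5.02 and 4.78 CPM in contralateral ones. CNN1, calponin, had 338, 1020.2, 894 and 615 CPM in ipsilateral libraries, against 389.6, 334, 330.2, 109 and 127 CPM in contralateral ones.

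The muscle list did not have the same sign in every heifer. DES, ACTG2, CNN1 and LMOD1 were highest in the ipsilateral libraries of 10882 and 11033, and in heifer 10872 the first 3 of these were higher contralaterally. The list's median difference was -0.77, 2.04, 2.15 and 0.84 in heifers 10872, 10882, 11033 and 11070, and its summed level 660 to 4784 CPM in ipsilateral and 250.5 to 1640 CPM in contralateral libraries. MYH11, MYOCD, CALD1 and TPM2 were not tested, TAGLN was at 0 counts in the contralateral libraries of 11033 and 11070, and ACTA2 averaged 0.274 CPM in ipsilateral and 0.307 CPM in contralateral libraries. The early genes were highest in libraries of 10882 and 11070, so that both lists were high together in 1 ipsilateral library, that of 10882. Whether the amount of muscle in a sample has a part in the early gene estimates was not tested.

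**Figure D3:**
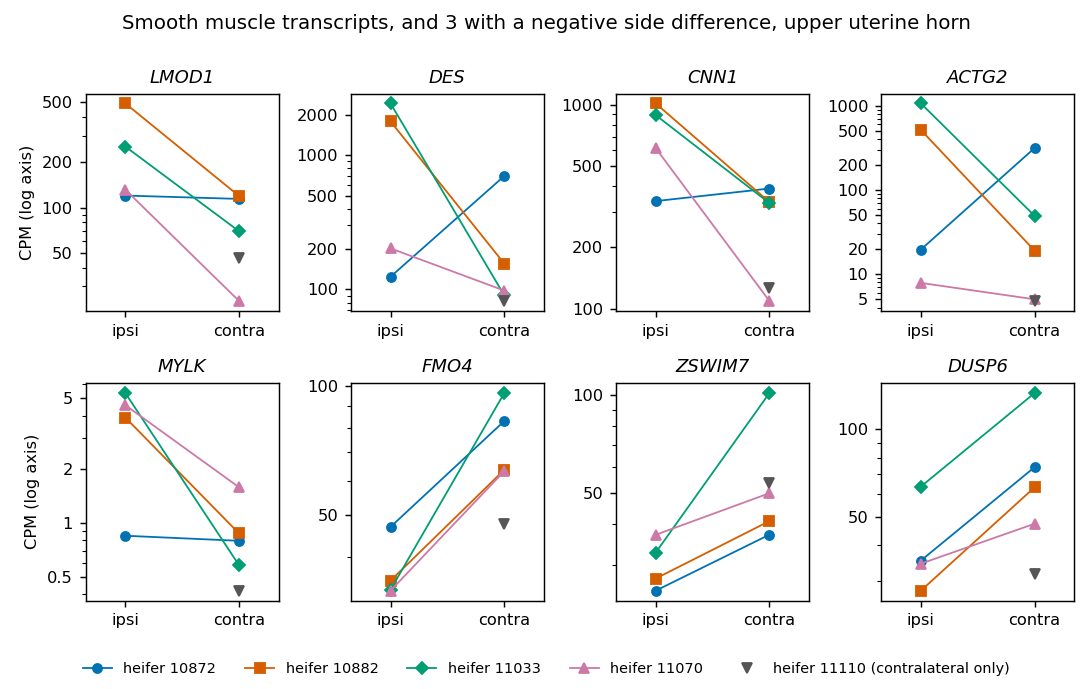
CPM (log axis) of 5 smooth muscle transcripts and of FMO4, ZSWIM7 and DUSP6 in each upper horn library, ipsilateral (ipsi) left and contralateral (contra) right, lines joining the sides of a heifer. DES and ACTG2 run opposite ways in heifer 10872 (124 and 19.6 CPM ipsilaterally, 699 and 315 CPM contralaterally) and in the other 3 heifers, while FMO4, ZSWIM7 and DUSP6 go up towards the contralateral side in all 4.

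The matrix is the bed of collagens and glycoproteins around stromal cells, which proteases cut and TIMP proteins protect. Of 35 tested matrix genes 28 had a positive difference, 7 (20%) with an unadjusted p under 0.05, and none was called. Their median log2 fold change was 0.44. Over the 20 alternatives it ran from 0.37 to 0.70, the highest being without the contralateral libraries of 10882 and 11033. ADAMTS4, a protease of aggrecan and versican, had 47.2, 715, 33.4 and 429.7 CPM in ipsilateral libraries, against 21.0, 48.3, 18.6, 44.96 and 60.8 CPM in contralateral ones (2.47 ± 0.55, 1.39 to 3.55, adjusted p = 0.316), high in the same libraries as the early genes. Its relative ADAMTS5 was more even, with 53.6, 69.7, 39.5 and 42.3 CPM in ipsilateral libraries, against 24.2, 29.5, 21.3, 17.6 and 31.7 CPM in contralateral ones, without overlap (1.02 ± 0.28, adjusted p = 0.524). TIMP3, an inhibitor of metalloproteinases that is bound to the matrix, had 696, 899, 509 and 1035 CPM in ipsilateral libraries, against 361, 494, 318, 314 and 473 CPM in contralateral ones, also without overlap (0.93 ± 0.25, adjusted p = 0.524). SPON1, a secreted matrix glycoprotein, was higher by 1.19, 1.25, 0.93 and 1.12 in the 4 heifers.

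Among the receptors, NR2F2 had even differences between heifers. NR2F2, the nuclear receptor COUP-TFII of uterine stroma, had 59.0, 71.9, 34.6 and 86.9 CPM in ipsilateral libraries, against 21.8, 27.0, 11.9, 31.4 and 49.0 CPM in contralateral ones. It was higher on the ovulatory side by 1.44, 1.41, 1.53 and 1.47 in heifers 10872, 10882, 11033 and 11070, and the fitted log2 fold change was 1.13 ± 0.36 (0.44 to 1.83, adjusted p = 0.546). The fit also holds the contralateral library of 11110, whose 49.0 CPM was the highest on that side. PGR, the progesterone receptor, had 19.9, 36.1, 26.1 and 44.3 CPM in ipsilateral libraries, against 15.9, 19.7, 7.93, 20.1 and 13.1 CPM in contralateral ones (0.94 ± 0.34, 0.27 to 1.61, adjusted p = 0.696). GHR, the growth hormone receptor, had 141, 206, 74.5 and 138 CPM in ipsilateral libraries, against 61.5, 85.6, 13.1, 66.0 and 87.7 CPM in contralateral ones (1.10 ± 0.40, adjusted p = 0.696). NR2F2, PGR and GHR were the hormone receptors with an unadjusted p under 0.05 among 18 tested, whose median log2 fold change was 0.15. Positive at that p were 5 without the ipsilateral library of 11033 and 2 without that of 11070. Without the contralateral libraries of 10882 and 11033 together it was 1. OXTR, the oxytocin receptor, averaged 111 CPM in ipsilateral and 84.6 CPM in contralateral libraries, with a log2 fold change of 0.42 ± 0.52.

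TGFB3, a transforming growth factor, had 25.6, 46.6, 11.5 and 12.3 CPM in ipsilateral libraries, against 8.003, 16.6, 1.84, 4.39 and 8.92 CPM in contralateral ones, and was higher in each heifer by 1.66, 1.48, 2.58 and 1.46 (1.43 ± 0.44, adjusted p = 0.540). Of 23 tested genes of the TGF-beta, BMP and activin systems 3 (13.0%) had an unadjusted p under 0.05, each positive. The WNT and R-spondin list gave 3 of 31 (9.68%), also positive, with SFRP2, a secreted WNT inhibitor, at 70.7, 478, 687 and 97.0 CPM in ipsilateral libraries, against 281, 75.2, 85.7, 83.6 and 82.6 CPM in contralateral ones, a layout like that of DES. Without the contralateral library of 11033 none of the WNT list had such a p, and 1 without the ipsilateral library of 10882.

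On the negative side, the 5 transcripts with the smallest p above a mean of 1 CPM were FMO4, FAM228B, MTMR8, ZSWIM7 and CCL25, with adjusted p between 0.528 and 0.639. FMO4, a flavin-containing monooxygenase, had 46.9, 35.1, 33.5 and 33.3 CPM in ipsilateral libraries, against 82.8, 63.8, 96.3, 63.3 and 47.7 CPM in contralateral ones. The groups were apart and all 4 heifers had less ipsilaterally (-0.96 ± 0.28, -1.51 to -0.41). ZSWIM7, a protein of homologous recombination, had 25.0, 27.2, 32.7 and 37.1 CPM in ipsilateral libraries, against 37.1, 40.9, 101, 49.8 and 53.7 CPM in contralateral ones, with the groups just apart. FAM228B had 6.62, 6.97, 6.18 and 4.64 CPM in ipsilateral libraries, against 12.5, 7.87, 12.4, 11.4 and 12.8 CPM in contralateral ones. Lower in all 4 heifers were 9.56% of all tested transcripts, and 0.876% had every ipsilateral library below every contralateral one. MTMR8, a myotubularin-related protein, and CCL25, a chemokine of the gut and thymus, were highest in the contralateral library of 11033, at 11.2 and 7.73 CPM, while the other contralateral libraries held at most 0.372 and 3.07 CPM.

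Other lists had medians of both signs, several of them above that of all transcripts. Complement, antimicrobial and chemokine genes had 0.30, apoptosis genes 0.26 and chaperones 0.22. At an unadjusted p under 0.05 these lists had 5 of 43 (11.6%), 2 of 13 (15.4%) and 3 of 23 (13.0%) positive. A negative difference at that p was found for 1, 0 and 0. Without the ipsilateral library of 10882 the positive ones were 3, 1 and 0. No member of any list except ERRFI1 was called, and the 36 lists held 716 distinct tested genes. Cilia genes, of which 15 were tested, had a median log2 fold change of -0.39 with 1 at an unadjusted p under 0.05, and summed to 354 to 1018 CPM in ipsilateral and 612 to 1456 CPM in contralateral libraries; the median was 0.01 without the contralateral library of 11070. Genes of endometrial glands had a median of -0.21, general epithelial genes of -0.02, endothelial genes of 0.22 and leukocyte genes of -0.04. The stromal median was 0.35, and it was 0.22 without the contralateral library of 10872. Of 17 tested stromal genes, 3 (17.6%) were positive at an unadjusted p under 0.05, and 1 without the ipsilateral library of 11070. For these 6 cell types the heifers differed in sign, the general epithelial median for instance being -0.92, -0.59, 0.84 and 0.06 in heifers 10872, 10882, 11033 and 11070. Interferon-stimulated genes, the classical response to the later bovine conceptus, had a median of 0.06 over 27 tested with 1 positive at an unadjusted p under 0.05. Cell cycle genes had a median of 0.04 over 19 tested, HOX genes of -0.22 over 29 and ribosomal protein genes of -0.18 over 56. Over the 20 alternatives the medians of 15 of the 36 lists took both signs, among them ribosomal proteins (-0.30 to 0.18), general epithelium (-0.28 to 0.20), leukocytes (-0.12 to 0.44), cell cycle (-0.14 to 0.20) and interferon-stimulated genes (-0.06 to 0.22).

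**Figure D4:**
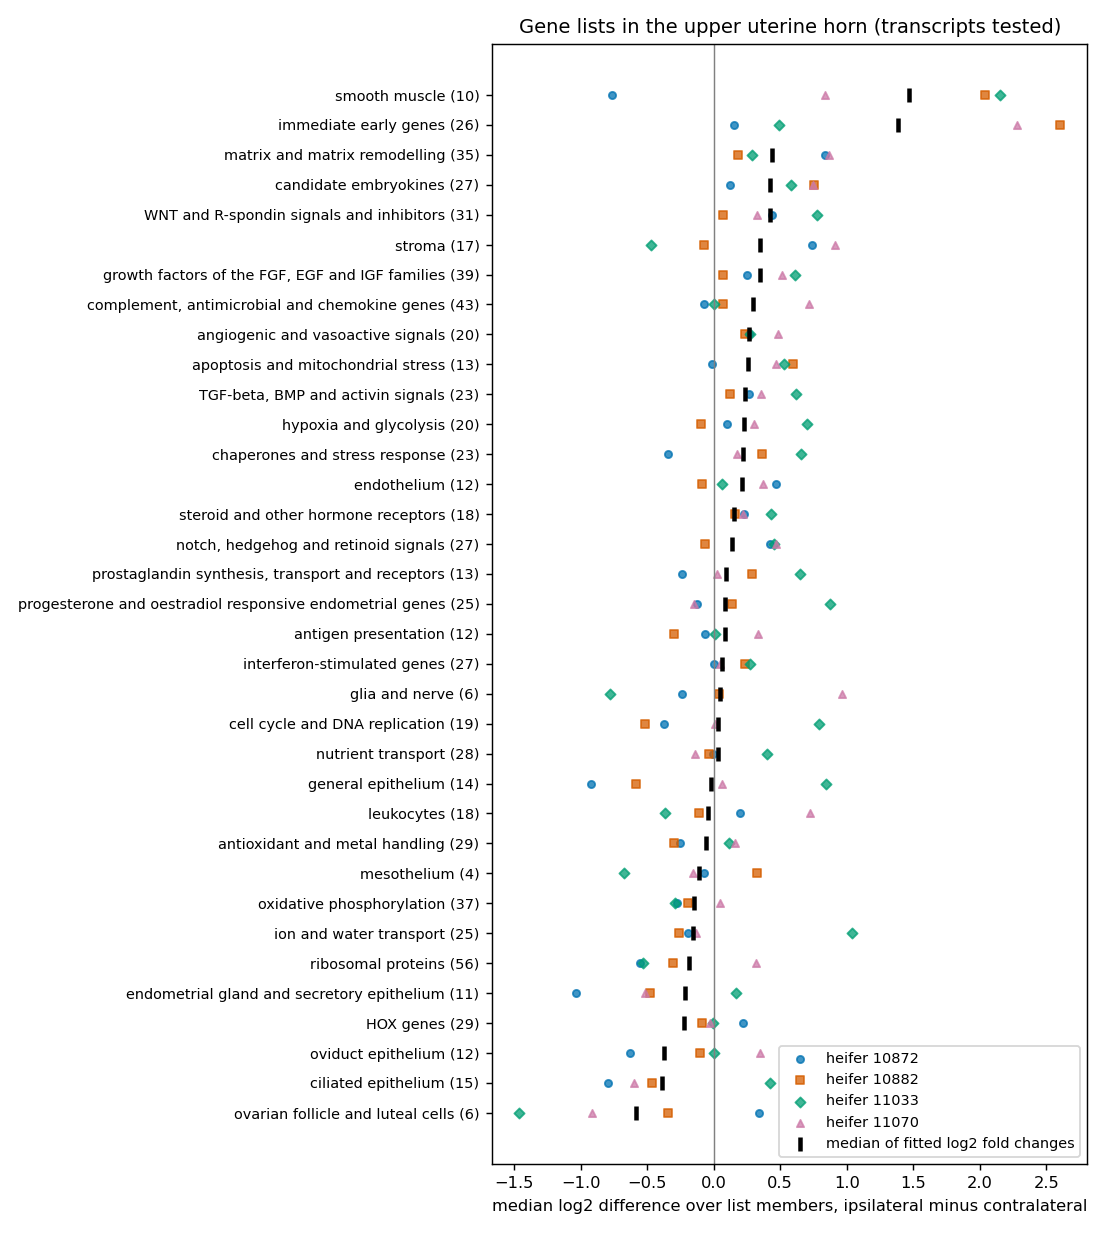
Median log2 difference, ipsilateral minus contralateral, over the tested members of each list with at least 4 tested (number in brackets): black bars for the fitted log2 fold changes, coloured points for the 4 heifers. Smooth muscle (1.47) and immediate early genes (1.38) stand above the other lists, whose black bars lie between -0.58 and 0.44.

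The mid horn and the ampulla of the oviduct were sampled on both sides in 5 heifers, and their side differences were set against that of the upper horn. The mid horn had 0 called transcripts, with 513 (2.98%) at an unadjusted p under 0.05 by the same test, and the ampulla had 3 (0.0174%), with 1250 (7.25%). With no filter on low counts 2 higher and 138 lower transcripts were called in the mid horn, and 94 higher and 56 lower in the ampulla. Without the contralateral upper horn of 11033 the unadjusted count was 612 in the upper horn and 593 in the mid horn. ERRFI1 had a log2 fold change of 0.26 ± 0.27 in the mid horn and 0.08 ± 0.28 in the ampulla, and in the rest of the uterus it stood at 108 ± 38.5 CPM in ipsilateral and 90.7 ± 30.8 CPM in contralateral mid horns and 75.9 ± 22.9 CPM in the uterine body (SD, n = 5 each). The upper horn's side difference exceeded that of the mid horn by 1.55 ± 0.40 and that of the ampulla by 1.72 ± 0.40, with adjusted p of 1 and 0.604, so that no difference between levels of the tract passed the test for it. In all, 0 transcripts were called for the difference from the mid horn, with 252 (1.46%) at an unadjusted p under 0.05, and 0 for that from the ampulla, with 724 (4.2%).

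The early genes had a median side difference of 1.38 in the upper horn, 0.13 in the mid horn and 0.66 in the ampulla. For 11 of the 26 the difference from the mid horn was positive at an unadjusted p under 0.05, against 0.829% of all transcripts, and for 6 the difference from the ampulla, against 1.86%. The smooth muscle median was 1.47 in the upper horn, 0.30 in the mid horn and -0.01 in the ampulla. The ampulla value rests in part on transcripts hardly detected there. LMOD1 averaged 0.191 CPM in ipsilateral and 0.211 CPM in contralateral ampullae, and TAGLN 0 CPM in both. IL6 had a log2 fold change of 2.37 ± 0.77 in the upper horn and of -0.82 in the mid horn and in the ampulla, a difference of 3.19 from each (adjusted p = 1). For NR2F2 the 3 levels gave 1.13 ± 0.36, 0.48 ± 0.33 and 0.36 ± 0.33, and for PGR 0.94 ± 0.34, 0.44 ± 0.32 and 0.47 ± 0.33, from the upper horn over the mid horn to the ampulla. In the same order GHR gave 1.10 ± 0.40, 0.71 ± 0.37 and 0.35 ± 0.42, and ADAMTS5 1.02 ± 0.28, 0.60 ± 0.26 and 0.08 ± 0.27. Medians closer between upper and mid horn were those of matrix genes (0.44 and 0.34) and stroma (0.35 and 0.35). In the ampulla these 2 lists had 0.16 and -0.01.

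**Figure D5:**
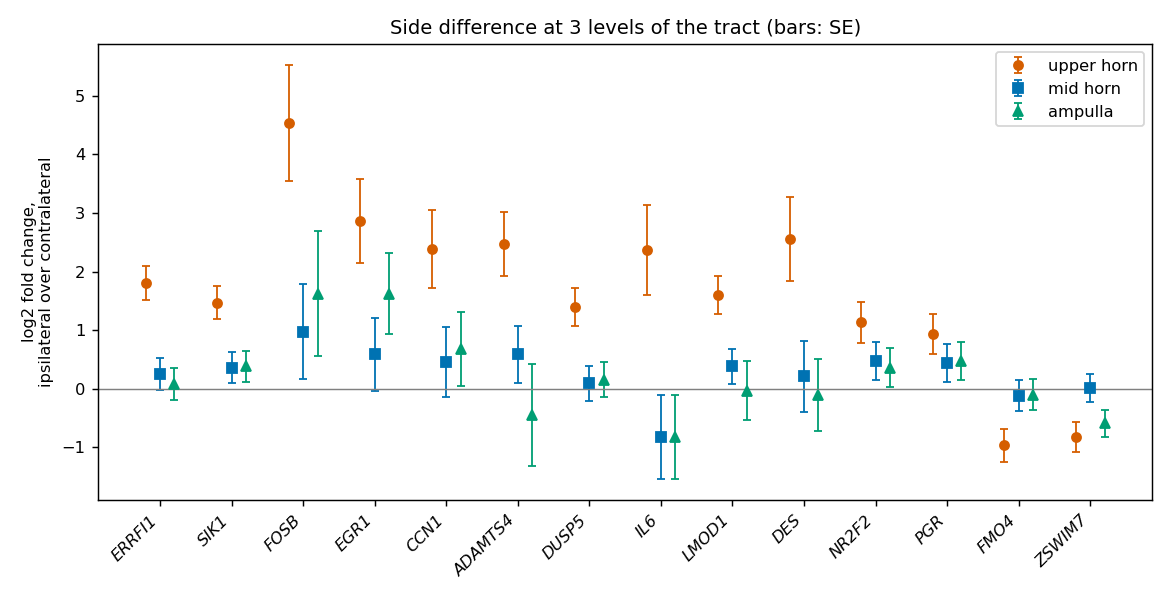
Log2 fold change, ipsilateral over contralateral, of 14 transcripts in the upper horn (circles), the mid horn (squares) and the ampulla (triangles), with bars of 1 SE. ERRFI1 stands at 1.81 in the upper horn, 0.26 in the mid horn and 0.08 in the ampulla, and no single difference between levels passed an adjusted p under 0.05. The ampulla values of LMOD1 and ADAMTS4 rest on few reads, with means of 0.191 and 0.200 CPM ipsilaterally and 0.211 and 0.259 CPM contralaterally.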

How the data were processed

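The values are raw counts of reads per feature, as the authors deposited them. The submitters' processing notes list Cutadapt, STAR 2.7.9a, HTSeq and SAMtools but no order or settings. Tissue was homogenised with beads, RNA purified on columns, and a directional library kit used, per the labels' protocols. Build, strandedness and read assignment were not given in the sources used here, so overlapping genes and close paralogues are uncertain. The rows are mostly single transcripts: of 38568 features, 26362 were matched to 21554 genes by a RefSeq table of assembly ARS-UCD2.0, used for names only, and carried 95.3% of counts. The feature with the most counts stood for a gene, and levels of different genes are not comparable.

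From these counts, edgeR 4.0.16 in R 4.3.3 gave TMM-scaled CPM, filterByExpr kept 17241 transcripts, and robust quasi-likelihood F tests used group and heifer terms over all 34 libraries, with Benjamini-Hochberg adjustment and calls at an adjusted p under 0.05. Intervals are at 95% and normal. Differences within a heifer are of log2 CPM with a prior count of 2. A count of 0 allows up to 3 counts by counting error alone. The heifer block follows from the labels, which put both sides in the same animal; deviations from group means correlated with 0.124 to 0.477 between the sides of a heifer and with -0.466 to 0.359 (median -0.0934) between heifers, the ipsilateral library of 11033 with the contralateral one of 10872 being the highest of these. No 2 libraries of a group agreed within sampling noise. Members and gene lists were chosen with earlier results of these data known. Named were all called transcripts, 5 per direction by the smallest p at a mean of at least 1 CPM over the 9 libraries, and up to 2 members per list without a call (up to 4 called ones), with 22 more chosen after their values were seen; 1 named transcript is not reported here. The scripts were tested on simulated data. Alternatives covered scaling, filters, the block, the libraries fitted, leaving out single libraries, 2 abundant features, summing by gene, the threshold, and DESeq2 1.42.0.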

Additional observations from a re-analysis of the deposited data

Results flagged for a closer look

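Single libraries that stood far from the others of their side, by Dixon's test, were found in 25 of 202 sets of 4 or 5 values examined. The nominal rate of 5% holds for independent sets of normally distributed values. These sets are mostly CPM values from the same libraries, and many transcripts were chosen by their values, so the count cannot show an excess. The contralateral horn of heifer 11033 was the highest for MTMR8 (11.2 CPM), ZSWIM7 (101 CPM), CCL25 (7.73 CPM), BUB1 (2.03 CPM), MCM5 (6.57 CPM), JSP.1 (657 CPM), ATP6V1B1 (58.8 CPM) and RPL7 (44.7 CPM), and the lowest for KDR (0.0967 CPM). It is the library with the fewest features, and for JSP.1, an MHC class I transcript with close paralogues, the other contralateral libraries held 37.1 to 154 CPM.

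The contralateral horn of heifer 10872 was the highest for SFRP2 (281 CPM), DES (699 CPM) and ACTG2 (315 CPM). In that heifer the ipsilateral horn was the highest for FMO4 (46.9 CPM), HBB (1.99 CPM) and ANGPTL7 (1.17 CPM). Heifer 10882 had the highest ipsilateral DKK2 (4.20 CPM), EGR3 (185 CPM) and CXCL12 (40.5 CPM) and the lowest contralateral FAM228B (7.87 CPM). The ipsilateral horn of 11033 was the highest for HOXB7 (13.8 CPM), and the contralateral horn of 11110 for PDGFRA (1.07 CPM).

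Both upper horn libraries of heifer 10882 stood apart by 2 abundant features, 18S ribosomal RNA and a pseudogene whose nature is not given in the table used. The 18S transcript took 6.48% of ipsilateral and 19.6% of contralateral counts, and LOC112444681 took 7.24% and 29.2%. The other upper horn libraries held at most 1.63% and 1.346%. Elsewhere in the fit the shares were also high, at 23.5% and 15.3% in the uterine body of 11033 and 11.1% and 13.5% in the contralateral ampulla of 11110.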

How the results depend on the processing

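The upper horn comparison called 1 transcript as reported. It called 1 with DESeq2 size factors, with a filter at 1 CPM, without the 18S transcript, without it and LOC112444681, with counts summed by gene and at an adjusted p under 0.1. It called 0 with no replicate block (which moved the median of all transcripts to -0.11), in the 4 full pairs alone with the replicate block, without the 3 doubted libraries (the contralateral upper horn of 11033, ampulla of 11070 and mid horn of 10882), and without the contralateral libraries of 10882 and 11033. It called 7 in the uterine libraries alone, among them EGR1, ERRFI1, CCN1, RND3, ADAMTS4 and SIK1, 22 (21 higher, 1 lower) with the DESeq2 Wald test, and 173 (121 higher, 52 lower) with no filter on low counts, of which 168 were also tested in the reported fit; the cause was not tested. Leaving out single libraries gave 0 to 5. With no filter, 69 transcripts (62 positive, 7 negative) were called for the difference from the mid horn and 40 (27 positive, 13 negative) for that from the ampulla, against 0 under the other alternatives run.

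Signs turned for 5 transcripts that were not called. MCM5 stood at 0.0408 without the 3 doubted libraries and 0.55 without the contralateral libraries of 10882 and 11033, and JSP.1 at 0.0498 and 0.20 in those settings and between -0.81 and 0.0381 without single libraries, the highest being without the contralateral one of 11033. Without both contralateral libraries B2M stood at 0.0329, RPL7 at 0.13 and GRP at 0.38, and GRP lay between -0.73 and 0.0631 without single libraries, above 0 without the ipsilateral library of 10872 (0.0457) or the contralateral one of 10882. Leaving out single libraries moved the log2 fold change of 41 of 96 named transcripts by more than 1.5 times. Without the contralateral library of 11033 this held for 20, of which 19 became smaller, and without the ipsilateral one of 10882 for 12, of which 11 became smaller. The early gene median ran from 0.96 to 1.60 and the smooth muscle median from 1.10 to 1.99 over 20 alternatives. The alternatives without LOC112444681 and without both contralateral libraries were chosen after seeing the data. Depth limits transcripts at 1 to 10 CPM, whose intervals reached 0.97 to either side.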

Other observations

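Outside the groups above, some transcripts had positive estimates. SLC7A5, a transporter of large neutral amino acids, had 133, 117, 93.8 and 99.4 CPM in the ipsilateral libraries of 10872, 10882, 11033 and 11070, against 85.7, 87.1, 71.9, 46.1 and 87.2 CPM in contralateral ones, without overlap (log2 fold change 0.64 ± 0.23, adjusted p = 0.696). ANGPTL2, a secreted angiopoietin-like protein, had 122, 116, 60.8 and 72.6 CPM in ipsilateral libraries, against 34.2, 60.3, 5.12, 31.2 and 61.5 CPM in contralateral ones, and was higher in 4 of 4 heifers (1.20 ± 0.44, adjusted p = 0.696). SLC2A3, a glucose transporter, was high where the early genes were, with 35.6, 372, 27.3 and 267 CPM in ipsilateral libraries, against 31.2, 36.5, 42.3, 34.5 and 66.7 CPM in contralateral ones. MCL1, an inhibitor of apoptosis, had 413, 1055, 333 and 501 CPM in ipsilateral libraries, against 417, 363, 275, 212 and 262 CPM in contralateral ones.

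INSL3, a relaxin family hormone of theca and luteal cells, had 1.52, 0.336, 0.875 and 0.433 CPM in ipsilateral libraries, against 2.39, 0.874, 5.61, 2.51 and 2.51 CPM in contralateral ones, lower ipsilaterally in 4 of 4 heifers (-1.68 ± 0.62, adjusted p = 0.696). The 6 tested ovarian markers all had a negative difference, where 8103 of all 17241 tested transcripts had a positive one. They summed to 28.5 to 57.7 CPM in ipsilateral and 36.3 to 88.9 CPM in contralateral libraries, the highest being that of 11033. Only INSL3 was lower in all 4 heifers, and the list's median difference was 0.34, -0.35, -1.46 and -0.91 in 10872, 10882, 11033 and 11070. Without the contralateral library of 11033 no marker had an unadjusted p under 0.05.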
